A study of Homo sapiens with 6 samples.

Results

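SLC25A6 and NDUFB7 are nuclear genes whose proteins work in the inner mitochondrial membrane, and their mRNAs carried 3 of the 542 5-methylcytosine (m5C) sites listed in a polysome gradient of HEK293T cells, a line derived from human embryonic kidney. The members were taken by gene name, which gave 2 of the 501 listed genes and 13 of the 1222 listings. Both genes had been chosen by measured values, an m5C level lower in the heavy polysome library than in the free library with the light polysome library on the same side. Levels in these 3 libraries are therefore given as a description, without a test.

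The cells were wild type and grown in DMEM with serum, cycloheximide was present in the lysis buffer, and the gradient was of sucrose. The question put to it was how the m5C level of a site varies with ribosome load. Its 6 fractions held free RNA, mRNA on the small subunit of the ribosome, mRNA on the large subunit, monosomes with a single ribosome, light polysomes of 2 to 5 ribosomes, and heavy polysomes with over 5. From every fraction poly(A)-selected RNA was made into 1 bisulfite library, so there were no replicates. All intervals and tests treat reads as independent and reflect their counting error and no other variation. Reads had no molecular identifiers, so PCR copies of a molecule count as separate reads. Intervals can therefore be too narrow and p-values too small. The lists hold no expression values, so the identity of the cells was not checked against markers. After bisulfite treatment unmethylated cytosine is read as T and m5C as C. The m5C level is the percentage of reads with C among reads with C or T, and their sum is the coverage. The lists held 172 to 233 sites per library with 50416 to 764521 reads at listed sites, and a site appeared only where it reached a level of 10% and 20 reads.

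SLC25A6 is an ADP/ATP carrier, one of a family of adenine nucleotide translocases that exchange ATP made in the mitochondrial matrix for ADP from the cytosol. NDUFB7 is an accessory subunit of complex I, the first enzyme of the respiratory chain, which passes electrons from NADH to ubiquinone and pumps protons across the same membrane. Both proteins are made on cytosolic ribosomes from nuclear transcripts. In mRNA, m5C sites followed by UCCA are called Type II and are made by NSUN6, while Type I sites, often followed by a G-rich triplet, are made mainly by NSUN2. Here every placed site without TCCA after it was counted as Type I, whatever its next bases and also in noncoding RNA. The enzyme that made a site was not tested.

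The sequences around the 3 sites are shown to compare these contexts, in DNA letters of the GRCh37 reference, 5′ to 3′ on the strand of the transcript, with the methylated C and, for the Type II site, the TCCA after it in capitals.
SLC25A6, exon 1, chrX:1510826-1510854, minus strand: atcgccgccgccatCTCCAagacggccgt
NDUFB7, exon 2, chr19:14677637-14677665, minus strand: cggctgctcaagtgCaagcgtgacagctt
NDUFB7, exon 3, chr19:14676961-14676989, minus strand: aaaggccagggaccCggggaagtggaccc

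The SLC25A6 site (ENSG00000169100) lay at position 1510840 of chromosome X, in the coding sequence (CDS) of exon 1 of 4, and was Type II. It was base 63 of a CDS of 894 bases without the stop codon, at codon position 3 of codon 21, close to the start of the reading frame. The main NDUFB7 site (ENSG00000099795) was Type I only in lacking TCCA. It lay at position 14677651 of chromosome 19, in the CDS of exon 2 of 3, at codon position 3 of codon 69. Its next 3 bases were AAG, with 1 G, whereas 219 of 339 placed Type I sites (64.6%) had 2 or 3 G there. The other NDUFB7 site, at position 14676975, lay in the CDS of the last exon at codon position 3 of codon 128, and was followed by GGG. It was 177 bases downstream in the transcript.

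All 3 sites fell at codon position 3. Of the listed CDS sites, 62 of 114 Type II sites (54.4%) and 59 of 146 Type I sites (40.4%) did so, which makes the shared position common among listed sites. Folding 50 bases on each side of a site with ViennaRNA gave a probability of being unpaired of 3.99% at the SLC25A6 site and 35.6% at the NDUFB7 exon 2 site. The medians over placed sites were 85.0% for 189 Type II and 23.8% for 339 Type I sites, so the SLC25A6 site was far from the usual prediction for its type. With 25 bases on each side the values were 78.4% and 92.6%, and with 75 bases 5.50% and 71.8%, and neither site has a prediction that holds at all 3 lengths. The NDUFB7 exon 3 site was predicted unpaired at 86.7%.

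The SLC25A6 mRNA has close relatives, so the same codon was read in the other adenine nucleotide carriers. Capitals mark the 5 bases at and after the aligned position.
SLC25A6, chrX:1510826-1510854, minus strand: atcgccgccgccatCTCCAagacggccgt
SLC25A5, chrX:118602527-118602555, plus strand: gtggccgcagccatCTCCAagacggcggt
SLC25A4, chr4:186064575-186064603, plus strand: gtcgccgctgccgtCTCCAagaccgcggt
SLC25A31, chr4:128651785-128651813, plus strand: gtcgcggcagctgtGTCCAagacagcggt

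SLC25A5 and SLC25A4, also carriers of ADP and ATP, hold a C followed by TCCA at the same base, 63, of a CDS of equal length, and SLC25A31, a carrier known from testis, does not. In the central 21 bases SLC25A5 differs from SLC25A6 at 1 position and SLC25A4 at 3. Neither paralog position was listed in any of the 6 libraries. SLC25A5 mRNA was itself covered, with 2583 to 8544 reads at a different listed site, in exon 2, in the 4 libraries that listed it. Whether the aligned C of SLC25A5 had a level under 10% or was lost to another filter cannot be told from the lists. Over 101 coding bases around the site, SLC25A5 differs from SLC25A6 at 15 positions, and at 13 once C is read as T. The 21 bases around each of the 3 listed sites had 0 other matches in the genome, also after conversion. SLC25A6 lies in the pseudoautosomal region, where the Y copy is masked in the reference used here (21 of 21 bases N), so reads are placed on X.

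At SLC25A6 the level stayed near 30% from free RNA to monosomes and was lower in both polysome libraries. There were 3769 C reads of 11778 in the free library, a level of 32.0% (95% Wilson interval 31.2% to 32.8%). The small subunit library had 5791 of 18859 (30.7%, 30.1% to 31.4%) and the large subunit library 2991 of 9883 (30.3%, 29.4% to 31.2%). The monosome library was highest of the 6, with 3172 of 9656 (32.9%, 31.9% to 33.8%), and its interval overlapped that of the free library alone. The light polysome library had 871 of 3320 (26.2%, 24.8% to 27.8%) and the heavy polysome library 576 of 2871 (20.1%, 18.6% to 21.6%). The 2 polysome intervals overlapped neither each other nor any lighter library.

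At the NDUFB7 exon 2 site the levels were closer together and rested on fewer reads. The free library had 444 C reads of 1752, or 25.3% (23.4% to 27.4%). The small subunit library had 104 of 364 (28.6%, 24.2% to 33.4%), the large subunit library 70 of 280 (25%, 20.3% to 30.4%) and the monosome library 195 of 837 (23.3%, 20.6% to 26.3%). The light polysome library had 1121 of 5036 (22.3%, 21.1% to 23.4%) and the heavy polysome library 408 of 2004 (20.4%, 18.7% to 22.2%). In order of level the libraries ran small subunit, free, large subunit, monosome, light polysome and heavy polysome, and every pair of neighbours in that order had overlapping intervals. The heavy polysome interval lay below those of the free and small subunit libraries and overlapped the other 3.

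**Figure D1:**
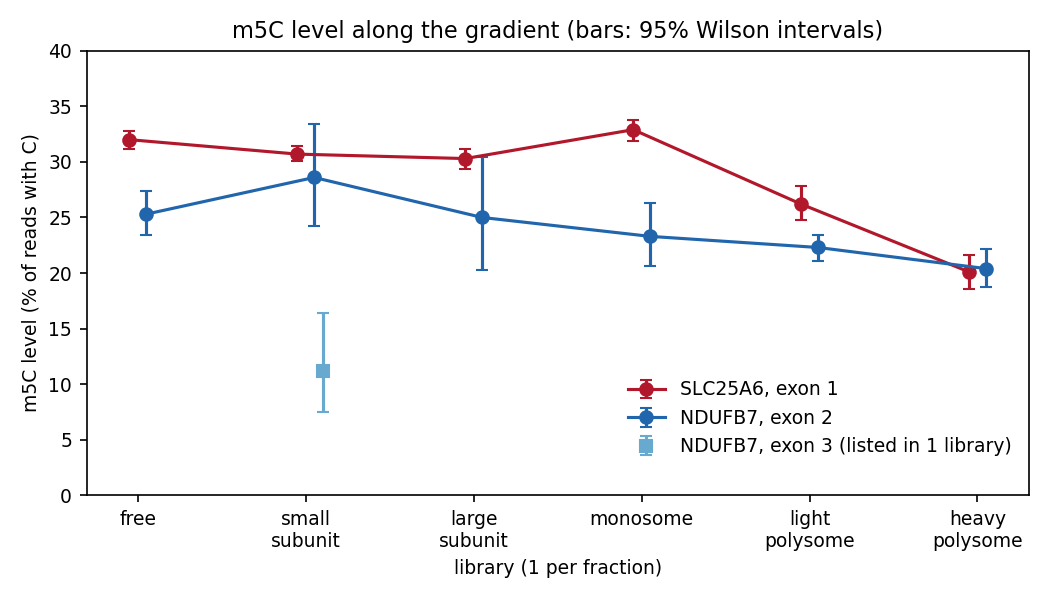
m5C level (percentage of reads with C, vertical axis) in each of the 6 libraries from free RNA to heavy polysome, with 95% Wilson intervals. SLC25A6 keeps to between 30.3% and 32.9% up to the monosome library and then reads 26.2% and 20.1%, whereas NDUFB7 exon 2 lies between 20.4% and 28.6%, and NDUFB7 exon 3 has 1 point at 11.2%.

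Side by side, SLC25A6 was above NDUFB7 in the free, monosome and light polysome libraries, where the intervals were apart. They overlapped in the small and large subunit libraries, and in the heavy polysome library the levels were 20.1% and 20.4%. Among the 31 sites listed in all 6 libraries, the SLC25A6 level ranked 12 of 31 from the top in the free and 19 of 31 in the heavy polysome library, and NDUFB7 ranked 15 and 18. The range over the 6 libraries was 12.8 percentage points at SLC25A6 and 8.21 at NDUFB7, ranks 16 and 22 of 31. Ranges at thinly covered sites are widened by counting error, and the widest, 30.9 points at NUDT3, a phosphohydrolase gene, came with as few as 24 reads in a library.

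The exon 3 site of NDUFB7 was listed in the small subunit library alone, with 22 C reads of 196, a level of 11.2% (7.53% to 16.4%). The interval reaches under the 10% filter, so a level of the same size could be listed in 1 library and missed in another. In the same library the exon 2 site, read from the same mRNA, was at 28.6%.

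Step by step, the level of SLC25A6 changed little until the monosomes and then dropped at both later steps. From free to small subunit it changed by -1.29 percentage points (95% Newcombe interval -2.36 to -0.227). From monosome to light polysome it changed by -6.62 (-8.36 to -4.83), against a median of -1.59 over the 105 sites listed in both. From light to heavy polysome it changed by -6.17 (-8.26 to -4.07), against -0.551 over 132 sites. By size of fall it ranked 26 of 105 and 33 of 132 at these steps, so larger falls were seen at other sites. These 3 steps involve the libraries that chose the gene.

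The corresponding steps at NDUFB7 were small beside their intervals. From free to small subunit the change was 3.23 points (-1.64 to 8.46), from monosome to light polysome -1.04 (-4.23 to 1.94) and from light to heavy polysome -1.90 (-3.97 to 0.240). Each of the 3 intervals held 0. The difference from free to heavy polysome at NDUFB7 was -4.98 points (-7.68 to -2.29), and no single step had an estimate of that size. The intervals from small to large subunit (-10.3 to 3.38) and from large subunit to monosome (-7.75 to 3.87) hold such a fall, so its place cannot be told. At SLC25A6 the difference was -11.9 (-13.6 to -10.2) and fell after the monosome. The median from free to heavy polysome over the 51 sites listed in both was -2.42. By size of fall SLC25A6 ranked 6 of 51 and NDUFB7 19 of 51. Both libraries were used to choose the genes.

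**Figure D2:**
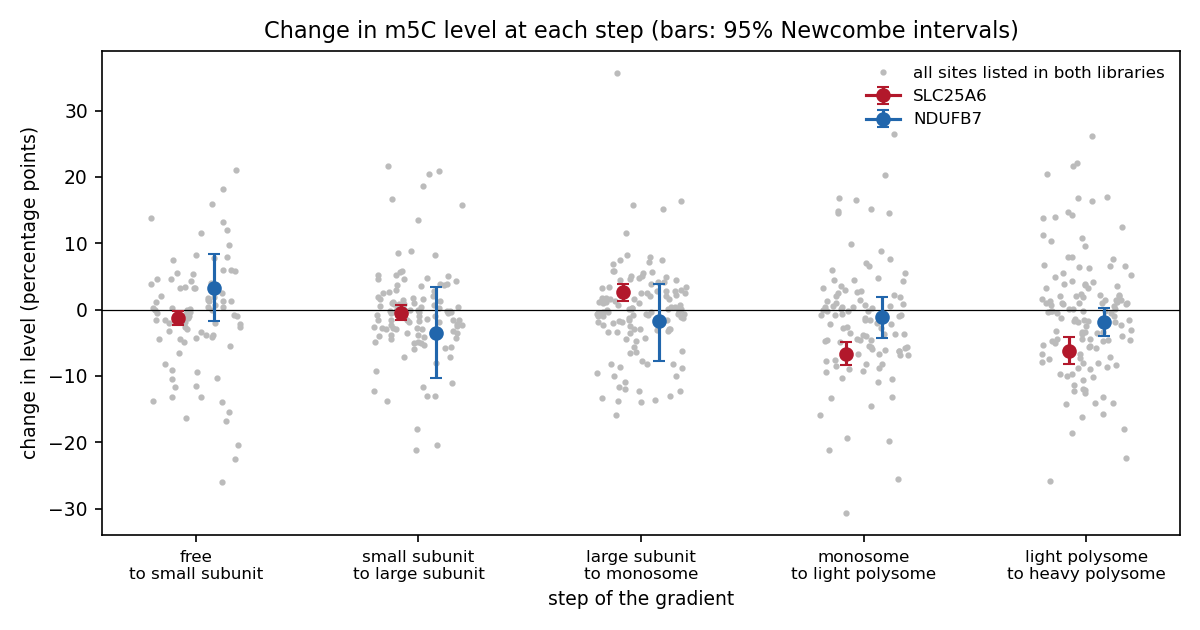
Change in m5C level in percentage points (vertical axis) at each of the 5 steps between neighbouring libraries, for SLC25A6 and NDUFB7 exon 2 with 95% Newcombe intervals, and for every site listed in both libraries of a step (grey points, spread sideways for visibility). SLC25A6 lies at -6.62 and -6.17 in the last 2 steps, within the grey spread, and the NDUFB7 intervals cross 0 in all 5.

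The libraries of both subunits and of monosomes had no part in choosing the genes, so the 3 pairs among them were tested. The numbers of C and T reads were set against each other by Fisher's exact test (two-sided), and p-values were adjusted by Benjamini-Hochberg over the sites that both libraries listed. A call therefore says that these 2 libraries differ, and nothing about how other gradients would vary. SLC25A6 rose by 2.59 percentage points from large subunit to monosome (1.28 to 3.89; Fisher's exact test, adjusted p = 0.00326), where 5 of 125 sites (4.00%) were called. It was also higher in the monosome than in the small subunit library, by 2.14 points (1.00 to 3.29; Fisher's exact test, adjusted p = 0.00649), where 5 of 111 sites (4.50%) were called. Both calls were for a rise, as were those of 3.20% and 3.60% of all sites tested. They share the monosome library. In both pairs the other called rises were at RPSA (8.29 and 11.1 points), MT-RNR1 (7.19 and 23.9) and RPS29 (1.75 and 2.62). By size, called or not, the 2 rises of SLC25A6 ranked 34 of 125 and 34 of 111, so larger rises were seen at other sites. Among sites with at least 100 reads in both libraries, 6 of 51 and 5 of 49 were called. Between small and large subunit libraries SLC25A6 changed by -0.443 points (-1.56 to 0.681; Fisher's exact test, adjusted p = 1.00), and 3 of 113 sites (2.65%) were called.

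At NDUFB7 none of the 3 pairs was called. The difference was -3.57 points (-10.3 to 3.38; Fisher's exact test, adjusted p = 1.00) from small to large subunit and -1.70 (-7.75 to 3.87; Fisher's exact test, adjusted p = 1.00) from large subunit to monosome. From small subunit to monosome the change was -5.27 points (-10.8 to 0.0398; Fisher's exact test, unadjusted p = 0.0590, adjusted p = 0.393). NDUFB7 had 280 to 837 reads in these libraries, against 9656 to 18859 at SLC25A6. Its interval from large subunit to monosome also held the SLC25A6 difference of 2.59, while that from small subunit to monosome did not reach the SLC25A6 difference of 2.14.

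The number of reads at the sites differed between the genes far more than the levels did. In these lists a count of reads at a site reflects how much of an mRNA is in a fraction and how deeply the library was sequenced. It also reflects how evenly reads cover the mRNA. The genes were compared with each other within a library, where depth cancels but uneven coverage does not. The sites were base 167 of 1451 in the SLC25A6 transcript and base 273 of 535 in that of NDUFB7. Evenness of coverage was not tested. SLC25A6 had 6.72 reads per NDUFB7 read in the free library (95% exact interval 6.39 to 7.07), 51.8 (46.7 to 57.6) in the small subunit library and 35.3 (31.3 to 39.9) in the large subunit library. The ratio was 11.5 (10.7 to 12.4) in monosomes, 0.659 (0.631 to 0.689) in light polysomes and 1.43 (1.35 to 1.52) in heavy polysomes. Between the small subunit and the light polysome library it differed 78.6-fold, and the light polysome library was the single one in which NDUFB7 had more reads. Counting T reads alone, which are unmethylated, gave 50.3 and 0.626 in these libraries.

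**Figure D3:**
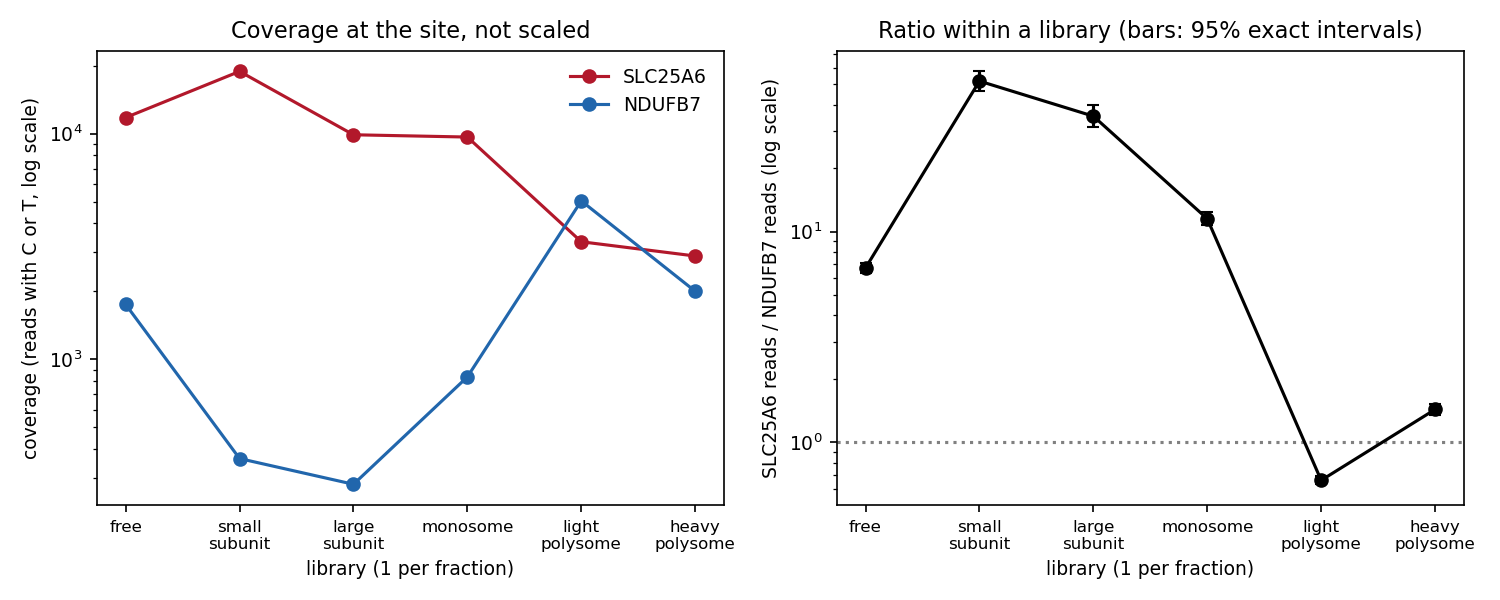
Left, coverage at the SLC25A6 and NDUFB7 exon 2 sites (reads with C or T, log axis, not scaled for depth) in each library; right, SLC25A6 reads divided by NDUFB7 reads within a library (log axis) with 95% exact intervals, and a dotted line at equal numbers. The curves cross between the monosome library, at 11.5, and the light polysome library, at 0.659, and cross back before the heavy polysome library, at 1.43.

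NDUFB7 had the largest rise in coverage from small subunit to light polysome among the 31 sites listed throughout. These libraries also had the highest and lowest ratio of SLC25A6 to NDUFB7, so the pair is not independent of that ratio. Mapped-read totals of the libraries are in the study's supplement and served as denominators. The coverage of NDUFB7 per 1000000 mapped reads was 14.8 in free RNA, 5.18 with the small subunit, 3.82 with the large subunit, 12.3 in monosomes, 80.7 in light polysomes and 30.2 in heavy polysomes. On this scale the rise was 15.6-fold, against a median of 1.08, 6.62-fold at NUDT3 (rank 2) and 4.12-fold at C19orf70, a gene of cristae organisation (rank 5). As a share of the reads at the sites listed throughout without MT-RNR1 it was 38.0-fold, of all listed reads 68.8-fold, and of those without MT-RNR1 57.6-fold. A library total multiplies all sites alike, so the fold depends on the scale and the rank of 1 of 31 does not. The light polysome library was highest for NDUFB7 on all 4 scales, and per 1000000 mapped reads at 11 of the 31 sites. Between lowest and highest library on that scale, NDUFB7 differed 21.1-fold. Several other sites differed more, among them MARCKSL1 (87.6-fold), HDGF (51.1-fold), MT-RNR1 (32.7-fold) and TMEM219 (32.3-fold). The NDUFB7 site was rank 36 of 233 by coverage in the large subunit library and rank 3 of 216 in the light polysome library.

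SLC25A6 had fewer reads in light polysomes than with the small subunit on each scale tried. Its coverage per 1000000 mapped reads was 99.7, 268, 135, 142, 53.2 and 43.3 in the same order, highest with the small subunit. As a percentage of the reads at the sites listed throughout without MT-RNR1, the mitochondrial 12S rRNA gene, it was 7.32%, 16.6%, 16.4%, 20.6%, 8.04% and 11.4%, highest in monosomes, so the library with the peak depended on the scale. From small subunit to light polysome it changed 0.198-fold per 1000000 mapped reads and 0.483-fold by that percentage. On either scale this was rank 28 of 31. Per 1000000 mapped reads the next site above it was that of RPS2P5, a pseudogene (0.200). Below it were RPS2, a ribosomal protein gene (0.177), PABPC1, the poly(A)-binding protein (0.164), and MT-RNR1 (0.116). Within a library SLC25A6 was always among the most covered sites, from rank 8 of 172 in free RNA to rank 4 of 225 in heavy polysomes. Whether heavy polysomes or free RNA had the higher share of SLC25A6 reads depended on the scale. The fold of heavy polysomes over free RNA was 0.434 per 1000000 mapped reads and 1.56 as a share of the reads at the sites listed throughout without MT-RNR1. For NDUFB7 the same folds were 2.04 and 7.30. The sites with more reads had narrower intervals. By counting error the SLC25A6 levels are the more precise in every library but light polysomes, where NDUFB7 had 5036 reads to 3320.

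Among the other carriers and respiratory genes, few were listed. Carriers of the SLC25 family, complexes I to IV and ATP synthase by gene name held 10 genes with 12 sites, of which 8 genes and 9 sites were not SLC25A6 or NDUFB7, and 4 of those 9 sites were listed in 1 library each. By these names complexes II, III and IV had 0 listed genes. Complex IV was taken as names starting with COX, so factors for its assembly with other names were not counted. Of these, SCO1 and PET100 had listed sites. Of those 9 sites, 5 could be tested in the pairs of subunit and monosome libraries: SLC25A39, SLC25A5 and both ATP5SL sites in all 3 pairs, and NDUFV3 between large subunit and monosome. By Fisher's exact test 0 of 4, 0 of 5 and 0 of 4 were called from small to large subunit, large subunit to monosome and small subunit to monosome, and 0 had an unadjusted p under 0.05 in each pair. Over all sites tested 2.65%, 4.00% and 4.50% were called.

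Of the other carriers, SLC25A39, which imports glutathione into mitochondria, was listed in all 6 libraries at a CDS Type II site. Its level was 15.6% (12.8% to 18.9%) in the free library, between 10.5% and 11.3% in the next 4, and 12.1% (9.08% to 16.0%) in heavy polysomes. SLC25A5 was at 12.4% in free RNA, 11.4% and 11.7% with the small and large subunits and 10.5% in monosomes, and was listed in neither polysome library. A level under 10% would not have been listed. SLC25A6 had 1.38 reads per read at the SLC25A5 site in free RNA, 2.62 with the small subunit, 3.83 with the large subunit and 2.18 in monosomes, so the relative number of reads of these close paralogs also differed between fractions.

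ATP5SL, now known as a factor for assembly of complex I although its name puts it with ATP synthase, had a Type II site in its CDS (chromosome 19, position 41944214). Its levels were 50.0% of 28 reads in free RNA, 41.8% of 110 with the small subunit, 40.2% of 97 with the large subunit, 46.0% of 100 in monosomes, 32.7% of 165 in light polysomes and 28.0% of 236 in heavy polysomes. The free interval of 32.6% to 67.4% overlapped the heavy polysome interval of 22.6% to 34.0%. The remaining complex I genes were thinly covered. NDUFS7, a core subunit, was listed at 30.0% of 30 reads with the large subunit. NDUFV3, an accessory subunit, was at 19.7% of 61 reads there and 22.2% of 27 in monosomes, and NDUFAF3, an assembly factor, was at 23.1% of 26 in light polysomes. ATP5I, a subunit of ATP synthase, was listed in free RNA at 23.7% of 59 reads, and the readthrough gene ATP5J2-PTCD1 with the small subunit at 12% of 92. A Type I site of ATP5SL was at 11% to 12.7% in the subunit and monosome libraries.

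**Figure D4:**
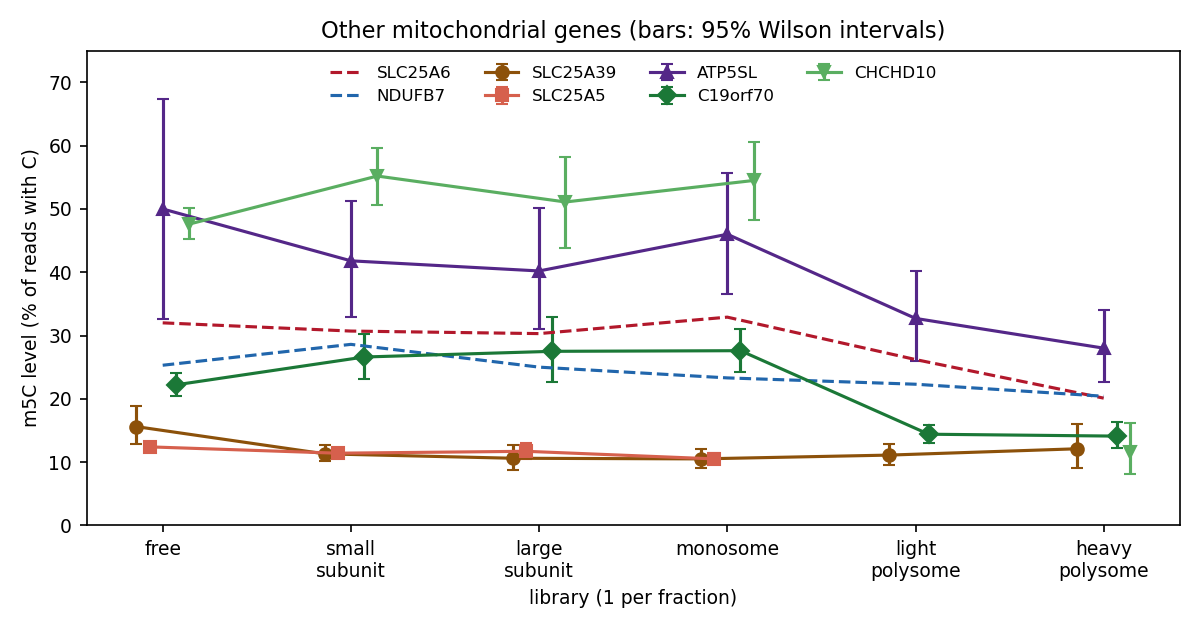
m5C level (percentage of reads with C, vertical axis) with 95% Wilson intervals at sites of SLC25A39, SLC25A5, ATP5SL, C19orf70 and CHCHD10 along the 6 libraries, with the SLC25A6 and NDUFB7 exon 2 levels as dashed lines. SLC25A39 and SLC25A5 stay between 10.5% and 15.6%, C19orf70 goes from 27.6% in monosomes to 14.4% and 14.1% in polysomes and CHCHD10 from 54.5% to 11.6%, and gaps in a line are libraries in which a site was not listed.

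C19orf70 and CHCHD10, whose proteins organise the cristae of the same membrane, were the nearest comparison. At C19orf70, a Type II site, the level was 27.6% (24.3% to 31.1%) in monosomes, 14.4% (13.0% to 15.9%) in light and 14.1% (12.2% to 16.3%) in heavy polysomes, so the lower level was already reached in light polysomes, while at SLC25A6 the light polysome value lay between those on either side. CHCHD10, a Type I site, was at 54.5% (48.2% to 60.6%) in monosomes and 11.6% (8.13% to 16.2%) in heavy polysomes, and was not listed in light polysomes. The differences between genes were not tested, since all were singled out for lower levels in polysomes.

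By Pearson correlation of the 6 levels, a description over 6 libraries that all sites share, the sites most like SLC25A6 were those of RPSAP15 (r = 0.963), a pseudogene of the ribosomal protein gene RPSA, ATP5SL (0.932) and RPS2P5 (0.842), a pseudogene of RPS2. The r between SLC25A6 and NDUFB7 was 0.704. Closest to NDUFB7 by r were TMEM219 (0.886), CINP (0.804) and NSUN5P1 (0.767). By mean absolute difference in level the nearest sites to SLC25A6 were RTN3 (2.00 points), NSUN5P1 (3.44) and NDUFB7 (4.65), and to NDUFB7 they were HDGF (1.84), TMEM219 (2.35) and CINP (3.65).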

How the data were processed

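Per the methods of the study and the submitters' processing notes, the authors trimmed reads with Cutadapt 1.13 and Trimmomatic 0.36, used HISAT2 2.10 on the C-to-T converted GRCh37 genome and, for reads left over, Bowtie2 2.2.9 on the converted transcripts, and removed sites in genes resistant to conversion and reads with many unconverted cytosines. Whether the counts precede that read filter is not given in the sources used here, and a read holding many true m5C would not pass it. The authors gave coverage as counts (C plus T reads, unscaled for depth) and the level as a fraction, C reads divided by coverage. Their deposited P-value was used only to describe the lists, in which it was at most 2.42e-04. The lists hold called sites alone, so a site missing from one was not necessarily unmethylated.

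C reads were level times coverage, within 9.09e-12 of a whole number at all 1222 listings. Groups came from the sample titles. Sites were placed in exons of the Ensembl canonical transcript where possible (GENCODE 44 lifted to GRCh37), which placed 528 of 542. Intervals were 95% Wilson (levels), Newcombe (differences) and Clopper-Pearson (ratios). Reads had no molecular identifiers. Coverage minimum, test, scaling, summed fractions and folding length were varied. The members, lists and tests were chosen with earlier results of these data known. Genes named beyond the members were those of the carrier and respiratory lists, C19orf70 and CHCHD10, paralogs, and for each member the 3 most like sites by each measure. NUDT3, MARCKSL1, MT-RNR1, RPS2, PABPC1, RPSA and RPS29 were named after their values were seen. SCO1 and PET100 were named as listed genes outside the name lists. Fisher's test was checked on simulated data. Tools were Python 3.11.15, scipy 1.17.1, pandas 2.3.3, pysam 0.24.0, matplotlib 3.10.9 and ViennaRNA 2.7.2.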

Additional observations from a re-analysis of the deposited data

How the results depend on the processing

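Of 81 alternatives, 60 were labelled as leaving a result the same. For tested pairs this meant the same direction and call, and for differences and ratios a value within the main interval. Counts of sites had to be of similar size, and folding had to stay on the same side of equal odds of pairing. Levels with Clopper-Pearson intervals were the same by construction, since the interval does not alter the level. The 24 for SLC25A6 and NDUFB7 in the 3 tested pairs were among the 60. Their direction could not change, since the reads of both genes stayed the same. Coverage minima and leaving out mitochondrially encoded genes altered only the set of sites adjusted over. The chi-square test alone gave the 2 genes new unadjusted p-values. Without mitochondrially encoded genes, 3 sites were called in place of 5 between large subunit and monosome libraries and also between small subunit and monosome libraries, since MT-RNR1 was left out and NVL (adjusted p = 0.0601 by Fisher's exact test) or REEP6 (0.0604) no longer passed. With the free, small subunit and large subunit reads summed against both polysome libraries, the SLC25A6 difference of -11.9 points became -7.60, without the free library -7.18 and without the heavy polysome library -4.74. The same sums gave NDUFB7 -4.07, -5.30 and -3.53. The heavy polysome over free coverage of SLC25A6 reversed, from 1.56-fold to 0.434-fold per 1000000 mapped reads, and was 3.70-fold as a share of all listed reads and 2.94-fold of those without MT-RNR1. For NDUFB7 it was 2.04, 17.3 and 13.8-fold in place of 7.30. The lists keep few sites with many reads, so their totals are not library depths. Counting C or T reads alone moved 7 of 12 ratios of SLC25A6 to NDUFB7 outside their intervals. No paired analysis was possible because each fraction had 1 library. Depth limits NDUFB7 most, with 280 and 364 reads in the subunit libraries.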
